A study of Mus musculus with 9 samples.

Results

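Haematopoietic stem cells (HSCs) of old mice that had received ABC294640, a small-molecule inhibitor of sphingosine kinase 2 (SphK2), were compared with HSCs of old mice without it, across all genes. The comparison rests on 6 of the 9 libraries of the series, 3 from treated old HSC and 3 from old HSC, chosen by their labels alone. The other 3 libraries, from young HSC, were used for reference levels. All mice were wild type, and the labels' protocols give ages of 2 to 4 months for young and 20 to 24 months for old animals. Each library was made from 1500 cells sorted from bone marrow, with polyadenylated RNA copied by a full-length low-input protocol and 12 cycles of PCR. The control group is labelled only as old HSC, and is called untreated here. The sources used here do not give whether it received a vehicle, nor the dose, route and duration of the inhibitor, nor the surface markers of the sort. The study's title places it around sphingosine metabolism, ferroptosis and rejuvenation of old HSCs, and the comparison asks what the inhibitor changes in old cells.

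HSCs are rare, mostly dormant cells that renew themselves and feed every blood lineage. With age they become more numerous, while their progeny shift towards myeloid cells and platelets. SphK2 is one of the kinases that phosphorylate sphingosine to sphingosine 1-phosphate, a lipid that acts through G protein-coupled receptors and, when made in the nucleus, can bind histone deacetylases. Sphingosine itself comes from ceramide, and sphingosine 1-phosphate is either dephosphorylated or broken down by the lyase Sgpl1. Ferroptosis is an iron-dependent form of cell death driven by peroxidation of membrane lipids. Glutathione and the peroxidase Gpx4 hold it back, and free iron and polyunsaturated phospholipids favour it.

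The 6 old libraries held 16663445 to 20966585 counts each. Levels below are CPM, a gene's counts per 1000000 counts of its library after TMM adjustment of library sizes, and the 3 values of a group are given in the order of replicates 1, 2 and 3. Fold changes are on the log2 scale with their standard error (SE), and a gene is said to have risen or fallen only at an adjusted p under 0.05 in the quasi-likelihood test of edgeR, adjusted over 14227 genes by the Benjamini-Hochberg method. Nothing in the labels ties the 3 libraries of a group to separate animals, and p-values therefore reflect the spread of these samples alone, which can be technical. The HSC genes Kit and Hlf were detected in all 6 libraries, at 112 to 119 and 20.1 to 23 CPM. Procr, Slamf1 and Fgd5, which mark the most primitive HSCs, were low, at 2.33 to 3.49, 7.22 to 8.38 and 0.308 to 1.12 CPM. Mpo, Elane and Prtn3, which encode granule proteins, together held 3.93% ± 0.0910 (SD, n = 3) of the counts in untreated and 3.74% ± 0.0516 in treated old HSC. The cells are called HSC after their labels. How many of them are primitive HSCs and how many are later progenitors was not tested.

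Few genes changed, and by little. Of the 14227 genes tested, 170 (1.19%) passed the threshold, of which 109 (0.766%) rose and 61 (0.429%) fell in treated old HSC. The genes that rose had a median log2 fold change of 0.30 and those that fell one of -0.37, against a median absolute change of 0.089 and a median of 0.001 over all genes tested. Only 9 of the 109 rises and 19 of the 61 falls were over 1.5-fold. All 14 immunoglobulin variable genes that fell were among those 19 falls. The 3 treated libraries lay wholly above the 3 untreated ones for 1186 genes tested (8.34%) and wholly below for 1015 (7.13%), and for 108 of the 109 rises and all 61 falls. The exception among the rises was Nlrc3. With trends of each library on transcript length and GC content removed, a setting chosen after the data were seen, 137 genes rose and 125 fell.

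**Figure D1:**
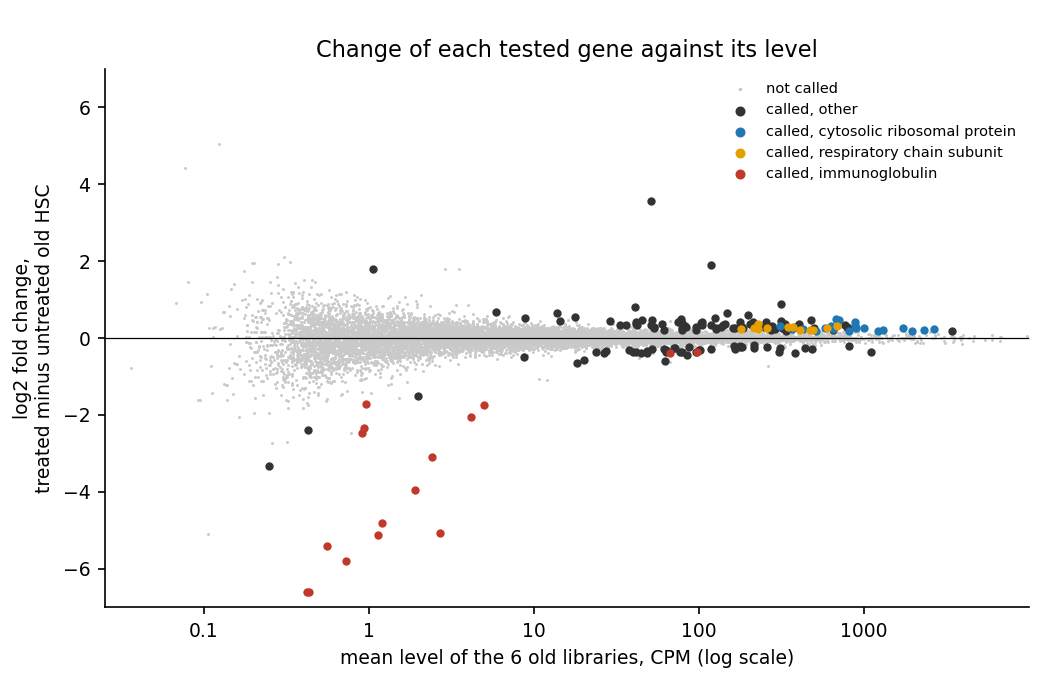
Log2 fold change of treated against untreated old HSC (vertical axis) by mean level in CPM (horizontal log axis) for each gene tested, with the genes that rose and fell coloured. Most points lie close to 0, the 109 rises sit mostly at high levels with small changes, and the largest falls are immunoglobulin variable genes at low levels.

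By number of calls, the rises depended on single libraries more than the falls. Without untreated replicate 1 or 2 the number of rises was 52 and 42, and without treated replicate 1 or 2 it was 31 and 17. Leaving out untreated replicate 1, treated replicate 1 or treated replicate 2 brought the falls to 40, 36 and 31. In every leave-one-out fit, 17 of the 109 rises and 28 of the 61 falls were still called. Those 17 rises included Rps28, Rpl38, mt-Atp8, Lsm5, Tomm7, Ost4, Rbx1, Pf4 and Nol4l, and the 28 falls included Cebpb, Chil3, Cxcl10, Crls1, Tmem165, Ybx1, Hnrnpab and Alyref. Of the 14 immunoglobulin variable genes that fell, 12 to 14 were still called in each such fit. All of the 14 but Ighv9-3 and Ighv1-53 held in every fit and count towards the 28. Of the 14, 8 passed the filter on low counts only through the untreated libraries, so that they could only fall. All of these 8 but Ighv9-3 are among the 28. The number of falls that held is therefore in part a description.

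Genes of the cytosolic ribosome made up the largest group of rises among the gene lists examined. Ribosomal proteins form, with ribosomal RNA, the small (Rps) and large (Rpl) subunits of the machine that makes protein. Of the 79 of 81 listed members that were tested, 21 rose and 0 fell, with 70 of 79 changes above 0 and a median log2 fold change of 0.11. Many ribosomal protein transcripts begin with a run of pyrimidines, through which their translation is coupled to nutrient signalling. The windows below run from 20 bases before to 30 bases from the annotated start, on the gene's strand, in RefSeq's GRCm38.p6, and are shown for members that rose with and without such a run. Capitals mark a run of at least 5 pyrimidines that opens with C within 5 bases of the start.
Rpl38, chr11:114668560-114668609, plus strand: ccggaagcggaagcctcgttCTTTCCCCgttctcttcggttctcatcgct
Rps26, chr10:128626477-128626526, minus strand: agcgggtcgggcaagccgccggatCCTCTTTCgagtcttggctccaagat
Rps28, chr17:33824533-33824582, minus strand: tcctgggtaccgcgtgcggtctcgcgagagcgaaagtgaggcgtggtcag
Rpl37, chr15:5116593-5116642, plus strand: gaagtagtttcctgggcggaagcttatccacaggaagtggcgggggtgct

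In Rpl38 and Rps26 the run is 8 bases long, and in Rps28 and Rpl37 these windows hold none. Promoters were matched by symbol for 14 of the 21 members that rose, and 7 of their 20 promoters (35%) had the run. It was present in 31 of 69 promoters (44.9%) of the list's tested members and in 19.4% of the 14211 promoters of all genes tested. The members that rose were therefore not those with the run more often than the list as a whole. This feature was looked for after the rises were seen.

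Rps28 (ENSMUSG00000067288, chromosome 17, 33819027 to 33824562, minus strand, GRCm38) encodes a small-subunit protein and had the largest change of the list. It was at 583, 487 and 626 CPM in untreated and 810, 848 and 730 CPM in treated old HSC, without overlap, which is 1.41-fold (log2 0.49 ± 0.068, adjusted p = 0.000527). Rps29, another small-subunit gene, was at 607, 512 and 650 against 804, 945 and 698 CPM (0.47 ± 0.087, adjusted p = 0.00599). Its treated libraries spread widely, and the call was lost without treated replicate 2 (adjusted p = 0.0714). Rpl38 (ENSMUSG00000057322, chromosome 11, 114668524 to 114672331, plus strand), a large-subunit gene known from its part in the translation of Hox transcripts, was at 770, 648 and 851 against 989, 1038 and 981 CPM (0.41 ± 0.066, adjusted p = 0.00227). Untreated replicate 2 was the lowest of the 6 libraries for all 3 genes.

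Rps26 rose from 806, 680 and 855 to 973, 1027 and 943 CPM (0.33 ± 0.059, adjusted p = 0.00516), and Rpl32 from 1551, 1475 and 1670 to 1871, 1915 and 1817 CPM (0.26 ± 0.046, adjusted p = 0.00565). Neither call held without treated replicate 2 (highest adjusted p with a library left out 0.0664 and 0.0764). The other 16 members that rose had log2 fold changes from 0.18 in Rpl23 to 0.31 in Rps21 and Rpl37, and included Rps19, the gene most often mutated in Diamond-Blackfan anaemia, with 0.24. The 3 genes of the ribosome's acidic stalk did not pass, with 0.02 in Rplp0, 0.15 in Rplp1 and 0.12 in Rplp2. The lowest value of the list was -0.32 in Rpl28, from 171, 241 and 140 to 148, 159 and 136 CPM, which did not pass (adjusted p = 0.341) and overlapped.

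The number of ribosomal protein rises fell with single libraries left out, to 9 and 8 without untreated replicates 1 and 2 and to 4 and 2 without treated replicates 1 and 2, while it was 13 without treated replicate 3. Without genes that share at least 20% of their 31-base words with other genes it was 8, since many ribosomal protein genes have processed copies that can take or lend reads. That share is 15.1% in Rps28, 31.6% in Rpl38, 20.2% in Rps26, 21.3% in Rps29 and 44.8% in Rpl32. Of the share of all counts, ribosomal protein genes held 8.36% ± 0.325 in untreated and 8.94% ± 0.0796 in treated old HSC (n = 3 each, no overlap, two-sided exact permutation p = 0.1, the smallest that 3 against 3 libraries allow). In young HSC the share was 9.62% ± 0.142. Ribosome biogenesis genes, whose products build the ribosome in the nucleolus, had 0 rises and 0 falls of 32 tested and a median of -0.03. Mitochondrial ribosomal protein genes had 0 of 77 in either direction and a median of 0.02, and translation factors and tRNA synthetases had 0 of 44 and a median of -0.02.

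Subunits of the respiratory chain were the next group. The chain and the ATP synthase of the mitochondrial inner membrane carry electrons to oxygen and make ATP, with most subunits encoded in the nucleus and 13 in the mitochondrial genome. Of 76 nuclear-encoded members tested, 12 rose and 0 fell, with 66 changes above 0 and a median log2 fold change of 0.10. Those that rose belong to complex I (Ndufa1, Ndufa4, Ndufb2, Ndufc1 and Ndufv3, of which Ndufa4 is now counted with complex IV), complex III (Uqcrb), complex IV (Cox6c, Cox7a2 and Cox7b) and the ATP synthase (Atp5e, Atp5j and Atp5k). Ndufs1, Ndufv1, Sdha, Uqcrc1, Atp5a1 and Atp5b, picked after their values were seen, had log2 values between -0.02 and 0.00 and did not pass.

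Atp5k (ENSMUSG00000050856, chromosome 5, 108433244 to 108434448, minus strand) encodes a subunit at which ATP synthases pair and was at 201, 171 and 221 CPM in untreated and 262, 267 and 240 CPM in treated libraries (0.37 ± 0.066, adjusted p = 0.00498). Ndufa4 was at 629, 553 and 651 against 760, 805 and 715 CPM (0.31 ± 0.056, adjusted p = 0.00516), and Cox7b, on the X chromosome, at 347, 305 and 358 against 415, 412 and 403 CPM (0.29 ± 0.053, adjusted p = 0.00598). The groups did not overlap for any of these, and untreated replicate 2 was again the lowest. Atp5e, of the central stalk of ATP synthase, rose from 323, 285 and 331 to 382, 397 and 362 CPM (0.28 ± 0.053, adjusted p = 0.00656). None of the 4 calls held without treated replicate 2, and the highest adjusted p with a library left out ran from 0.0548 (Atp5k) to 0.0844 (Atp5e). Of the list's 12 rises, 4 were left without untreated replicate 1 and also without replicate 2, 2 without treated replicate 1, 0 without treated replicate 2 and 7 without treated replicate 3.

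Among the 13 protein-coding transcripts of the mitochondrial genome, 2 rose and 0 fell, with a median log2 fold change of 0.06. mt-Atp8, an ATP synthase subunit gene on the plus strand at 7766 to 7969 of the mitochondrial genome, was at 383, 377 and 441 CPM in untreated and 551, 567 and 532 CPM in treated old HSC (0.46 ± 0.061, adjusted p = 0.000402). Its treated libraries were close together and all above the untreated ones. Of its exon bases 21.1% overlap mt-Atp6, which had a log2 value of 0.05 and did not pass. mt-Nd4l, of complex I, rose from 155, 130 and 154 to 173, 182 and 168 CPM (0.25 ± 0.058, adjusted p = 0.0334), but 98.9% of its words recur elsewhere, so its count is uncertain. That call was lost without untreated replicate 2, treated replicate 1 or treated replicate 2 (highest adjusted p = 0.261) and with trends on transcript length and GC content removed. The mitochondrial genome as a whole held 5.60% ± 0.124 of the counts in untreated and 5.73% ± 0.173 in treated libraries, with overlap (exact permutation p = 0.3). Citric acid cycle and fatty acid oxidation genes had 0 of 34 in either direction and a median of 0.01.

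Tomm7, Usmg5, Snrpg and Lsm5 were also among the largest rises. Tomm7, a small subunit of the pore through which proteins enter mitochondria, was at 183, 162 and 202 CPM in untreated and 249, 254 and 225 CPM in treated old HSC (0.41 ± 0.067, adjusted p = 0.00243). Usmg5, a small protein of ATP synthase, was at 225, 189 and 247 against 298, 308 and 270 CPM (0.41 ± 0.071, adjusted p = 0.00453). Snrpg, a core protein of the spliceosomal particles, rose from 268, 228 and 302 to 359, 404 and 328 CPM (0.45 ± 0.081, adjusted p = 0.00516). Lsm5, of the ring that binds U6 RNA and decapped messages, rose from 83.2, 83.7 and 101 to 117, 114 and 117 CPM (0.38 ± 0.068, adjusted p = 0.00516). For each of these 4 genes every treated library was above every untreated one. Untreated replicate 2 was the lowest library in Tomm7, Usmg5 and Snrpg. The calls of Usmg5 and Snrpg were lost without treated replicate 2 (adjusted p = 0.0531 and 0.0666).

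**Figure D2:**
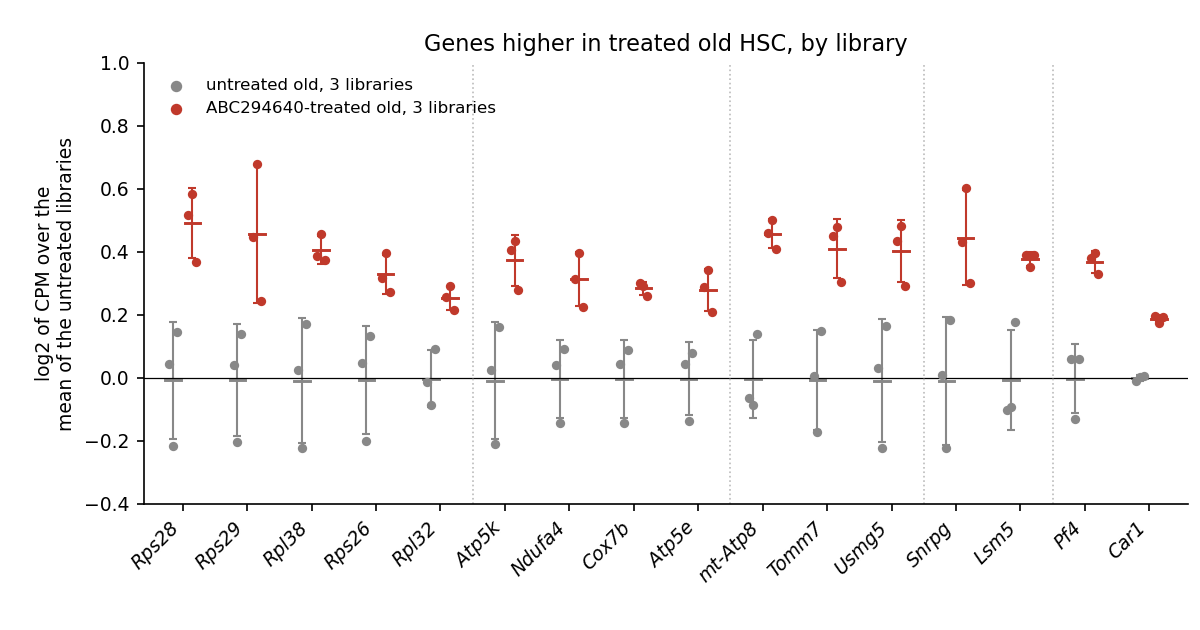
Log2 of the CPM of each library over the mean of the untreated libraries (vertical axis) for 16 genes that rose (horizontal axis), with untreated libraries in grey, treated ones in red, and lines and bars for the mean and SD (n = 3). Every red point lies above the grey points of its gene. In every gene shown but Lsm5 and Car1, the lowest grey point is untreated replicate 2.

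Length went with these rises. The genes that rose had a median transcript length of 653 bases, and 68.8% were under 1000 bases, against 2164 bases and 18.7% of all genes tested. Among genes of at least 10 CPM, 28 of the 158 with transcripts under 500 bases rose (17.7%) and 0 fell, with a median log2 fold change of 0.101. Between 500 and 1000 bases 46 of 1583 rose (2.91%), and between 1000 and 2000 bases 13 of 2348 (0.554%). In the class under 500 bases the median log2 of a library's level over the untreated mean was -0.067 in untreated replicate 2, 0.026 and 0.049 in untreated replicates 1 and 3, and 0.103, 0.128 and 0.082 in the treated libraries. Genes under 1000 bases held 43.4% ± 0.635 of the counts in untreated and 44.4% ± 0.246 in treated libraries, without overlap. The part of transcript length, or of the untreated library that stood lowest, in the ribosomal and respiratory chain rises was not tested beyond the fit with trends on length and GC content removed, the setting given above, in which 20 ribosomal and 10 respiratory chain genes rose.

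**Figure D3:**
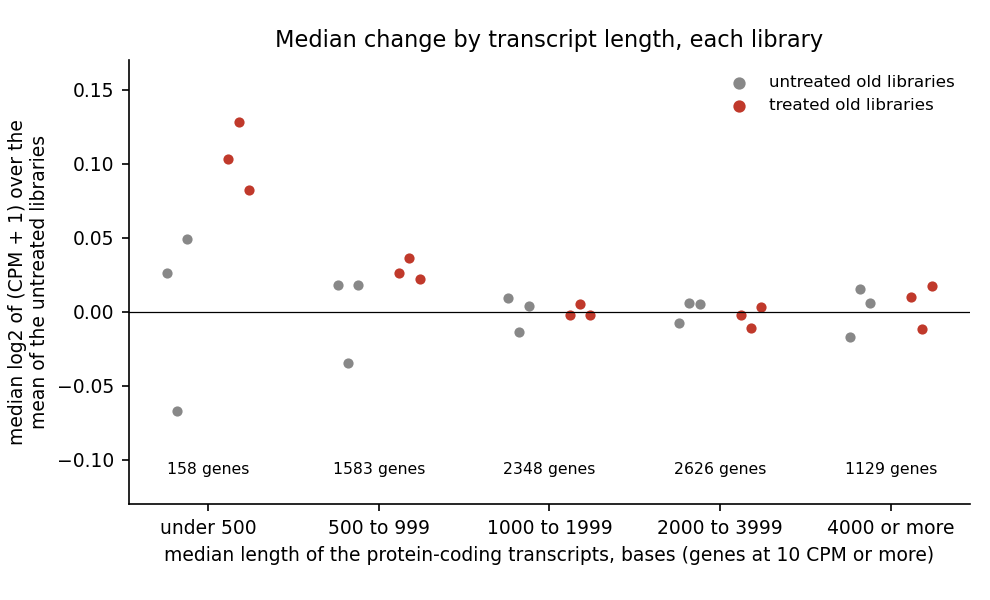
Median over genes of log2 (CPM + 1) of each library over the mean of the untreated libraries (vertical axis) by class of transcript length (horizontal axis, bases) for genes of at least 10 CPM, with untreated libraries in grey and treated ones in red. Under 500 bases the treated libraries lie at 0.082 to 0.128 and the untreated ones at -0.067 to 0.049, and from 1000 bases on the groups overlap.

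Many genes that changed, in either direction, share sequence with other genes. Of the 109 genes that rose, 45 (41.3%) share at least 20% of their words, as do 25 (41%) of the 61 that fell and 14.3% of all genes tested. Of the rises 15 are annotated as pseudogenes, and of the falls 0. Rpl34-ps1, a processed copy of a ribosomal protein gene whose words all recur elsewhere, was at 64.5 ± 6.08 CPM in untreated and 90.4 ± 3.90 in treated libraries (log2 0.49, adjusted p = 0.000527). The pseudogene Gm6472 was called with 3.71, 0 and 21.8 against 89.9, 151 and 42.6 CPM, libraries of 1 group that differ by far more than those of other genes. Counts of such copies are uncertain.

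Single marker genes of blood lineages and of immune recognition also rose. Pf4 (ENSMUSG00000029373, chromosome 5, 90772435 to 90773383, plus strand) encodes platelet factor 4, a chemokine of megakaryocytes that has also been tied to HSC quiescence. It was at 186, 163 and 186 CPM in untreated and 232, 235 and 224 CPM in treated old HSC, a rise of 1.29-fold (0.37 ± 0.053, adjusted p = 0.000631) that held with each library left out. Of the 22 tested megakaryocyte and platelet markers Pf4 was the only one to pass, with 15 changes above 0 and a median of 0.07. Their summed level was 894 ± 13.7 CPM in untreated and 981 ± 6.43 CPM in treated libraries. In bulk libraries, a change in the number of cells of a type and a change in RNA per cell cannot be told apart.

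Vwf, a platelet gene that marks platelet-biased HSCs, was at 11.9, 12.9 and 12.8 against 15.5, 15.2 and 14.6 CPM, without overlap, but did not pass (0.27 ± 0.089, adjusted p = 0.248). Car1, an erythroid carbonic anhydrase, rose from 311, 314 and 315 to 359, 354 and 358 CPM (0.19 ± 0.042, adjusted p = 0.0255) and was the only one of 27 erythroid markers to pass, with 20.1% of its words shared with other genes. The call was lost with any 1 of the 6 libraries left out (highest adjusted p = 0.157). B2m, the light chain of MHC class I, rose from 3102, 3134 and 3369 to 3672, 3655 and 3595 CPM (0.19 ± 0.044, adjusted p = 0.0407) and was the only one of 26 antigen presentation genes to pass, where 22 changes were above 0 with a median of 0.07. Its call held only without untreated replicate 3 among the leave-one-out fits, and was also lost with DESeq2's size factors in edgeR and with a stricter filter.

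Rises outside these groups were found too. Nol4l, a nuclear protein gene whose transcript is 6004 bases long, was at 39.7, 45.2 and 45.7 CPM in untreated and 63.5, 60.2 and 56.6 CPM in treated old HSC, a rise of 1.38-fold (0.46 ± 0.066, adjusted p = 0.000631). Sgip1, of endocytosis, was at 35.5, 34.1 and 44.6 against 52.3, 56.4 and 49 CPM (0.47 ± 0.084, adjusted p = 0.00516). Pola2, the second subunit of the primase-polymerase that opens DNA synthesis, rose from 202, 243 and 230 to 292, 278 and 251 CPM (0.28 ± 0.062, adjusted p = 0.027) and was the only one of 42 S phase genes to pass. Tmsb10, which binds actin monomers, rose from 300, 267 and 304 to 346, 365 and 320 CPM (0.25 ± 0.057, adjusted p = 0.0336). Among these 4 genes the call of Nol4l alone held with each library left out, and treated replicate 2 was among the libraries whose absence ended each of the others. The highest adjusted p was 0.0621 for Sgip1, 0.236 for Pola2 and 0.288 for Tmsb10, of whose words 32% recur in other genes. Among the other large rises were Fmo1 (0.52), Ctf2 (0.38) and 3 genes whose words mostly recur elsewhere, Hmga1b (0.56), Synb (0.45) and Hist1h4m (0.45). These calls were lost in 3 leave-one-out fits for Ctf2 and Synb, in 4 for Hmga1b and in 5 for Fmo1 and Hist1h4m (highest adjusted p from 0.122 to 0.315), and that of Hmga1b also with DESeq2. With the stricter filter Fmo1 and Hmga1b were not called.

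Among the falls, the transcription factor gene Cebpb had the smallest adjusted p outside the immunoglobulin genes. C/EBP beta directs myeloid differentiation, above all in emergency granulopoiesis, and is induced by inflammatory and integrated stress signals. Cebpb (ENSMUSG00000056501, chromosome 2, 167688915 to 167690418, plus strand, a gene of a single exon) was at 80.3, 70.2 and 74.6 CPM in untreated and 49.4, 51 and 48 CPM in treated old HSC. This is 1.52-fold lower (-0.60 ± 0.067, adjusted p = 4.14e-05), with tight treated libraries far below the untreated ones, and it was called with each library left out. Of its exon bases 20.7% overlap Tmem189. In young HSC, whose comparison with old HSC shares the untreated libraries, Cebpb was at 32.4 ± 2.80 CPM.

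Gclm, the regulatory subunit of the ligase that makes the first step of glutathione, was the only one of 30 ferroptosis defence genes to pass. Gclm (ENSMUSG00000028124, chromosome 3, 122245557 to 122270732, plus strand) was at 191, 194 and 190 CPM in untreated and 168, 157 and 167 CPM in treated old HSC, which is 1.17-fold lower (-0.22 ± 0.044, adjusted p = 0.0125). The 3 untreated values were nearly equal and the 3 treated ones all lower. The call was lost without untreated replicate 1, treated replicate 1 or treated replicate 2 (highest adjusted p = 0.122). In young HSC it was at 121 ± 0.983 CPM. The promoters of Cebpb, Gclm and the chemokine gene Cxcl10, which also fell, are shown because several known response elements act there. Each runs from 250 bases before to 30 bases from the annotated start, on the gene's strand, from RefSeq's GRCm38.p6. Capitals mark matches on either strand to the CCAAT box (CCAAT), the TATA box (TATAAA), the GC box (GGGCGG), the E-box (CACGTG), the cAMP response element (TGACGTCA, or its first part TGACGT), the AP-1 site (TGACTCA), the interferon-stimulated response element (GAAANNGAA), the antioxidant response element (TGACNNNGC, which can overlap AP-1 letters), the ETS site (GGAAGT), the GATA site (AGATAA) and the kappaB site (GGGACTTTC).
Cebpb, chr2:167688665-167688944, plus strand: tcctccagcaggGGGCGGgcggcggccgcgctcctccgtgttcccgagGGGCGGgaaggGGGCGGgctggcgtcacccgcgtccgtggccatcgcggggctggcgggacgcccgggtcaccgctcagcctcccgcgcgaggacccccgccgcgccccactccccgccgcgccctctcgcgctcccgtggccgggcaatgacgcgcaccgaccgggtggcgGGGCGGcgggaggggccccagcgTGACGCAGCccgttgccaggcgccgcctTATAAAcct
Gclm, chr3:122245307-122245586, plus strand: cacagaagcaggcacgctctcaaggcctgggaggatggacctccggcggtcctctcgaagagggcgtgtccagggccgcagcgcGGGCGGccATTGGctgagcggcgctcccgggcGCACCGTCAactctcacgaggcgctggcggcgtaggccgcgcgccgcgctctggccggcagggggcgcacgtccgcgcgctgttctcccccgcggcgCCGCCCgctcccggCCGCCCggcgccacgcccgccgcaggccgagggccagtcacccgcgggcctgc
Cxcl10, chr5:92348860-92349139, minus strand: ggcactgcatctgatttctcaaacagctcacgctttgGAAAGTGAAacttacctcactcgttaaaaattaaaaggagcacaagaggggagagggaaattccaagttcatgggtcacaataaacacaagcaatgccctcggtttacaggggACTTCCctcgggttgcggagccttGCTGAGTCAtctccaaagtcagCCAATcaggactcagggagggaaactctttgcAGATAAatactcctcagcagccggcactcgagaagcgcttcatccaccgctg

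The Cebpb window holds 4 GC boxes, 1 antioxidant response element match and TATAAA. The Gclm window holds GC boxes, a CCAAT box on the reverse strand and 1 antioxidant response element match, and the Cxcl10 window holds interferon-stimulated response element, CCAAT, ETS and GATA letters and an AP-1 match that overlaps an antioxidant response element match. The windows of Cited2 and Ybx1, which also fell and are not shown, hold no antioxidant response element match. Over the 300 bases that RefSeq's table gives for each promoter, antioxidant response element letters were in 11 of 53 promoters (20.8%) of genes that fell, in 8 of 87 (9.2%) of those that rose and in 13.8% of all 14211. The letters TGACGT were in 11 of 53 (20.8%), 6 of 87 (6.9%) and 10.5%, and TATAAA was in 17%, 11.5% and 8.25%. With only the 250 bases before the start, TATAAA was in 11.3%, 8.05% and 7.52%. Letters of the ETS site, E-box, AP-1 site and kappaB site were in 22.6%, 7.55%, 3.77% and 0% of promoters of genes that fell. Over all promoters these were 27.4%, 9.34%, 3.97% and 0.408%. The remaining motifs were more frequent in promoters of genes that fell than in all. Promoters were found for 43 of the 61 genes that fell, 68 of the 109 that rose and 11170 of the 14227 tested. Only the exact letters given above were searched, so that other forms of a site, the kappaB site included, were not counted. A match is a description of letters and not evidence of a bound site.

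Cxcl10, which draws T cells and is induced by interferon and NF-kB, was at 237, 229 and 239 CPM in untreated and 195, 193 and 202 CPM in treated old HSC (-0.26 ± 0.043, adjusted p = 0.00302), with no overlap and the call kept with each library left out. It was the only one of 35 NF-kB, cytokine and inflammatory genes to pass, and their median log2 fold change was -0.04. Of 48 interferon-stimulated genes 1 fell and 0 rose, with a median of 0.06. The 1 was Irgm2, an immunity-related GTPase gene, from 9.77, 10.8 and 10 to 7.02, 6.59 and 8.27 CPM (-0.48 ± 0.12, adjusted p = 0.0451), whose call was lost in 5 of 6 leave-one-out fits and which overlaps Igtp. Genes such as Isg15 and Irf7 had log2 values of 0.10 and 0.16 and did not pass.

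Of 29 AP-1 and immediate early genes, which cells induce within minutes of a stimulus or of handling, 2 fell and 0 rose, with a median of -0.06. Jund, an AP-1 subunit, was at 81.1, 74.6 and 75.2 against 63.2, 67.6 and 61.3 CPM (-0.27 ± 0.058, adjusted p = 0.023), with 50.1% of its words shared with other genes. Ier5, an early response gene that regulates the heat shock factor, fell from 29.2, 26.3 and 24.2 to 19.9, 21.7 and 20.3 CPM (-0.37 ± 0.081, adjusted p = 0.0266). The calls were lost in 3 and 5 of the 6 leave-one-out fits (highest adjusted p = 0.167 and 0.185). Fos, Jun, Egr1 and Atf3 were nearly level between groups, with log2 values of -0.02, -0.00, -0.04 and -0.02. Of 28 genes of the ATF4 integrated stress response, Cebpb was the only one to fall and the median was -0.05. Ddit3, the stress response gene encoding CHOP, was at 66, 63.4 and 62.1 against 60.1, 64.9 and 60.7 CPM (adjusted p = 0.898).

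Chil3, a chitinase-like protein of neutrophil precursors and macrophages, fell from 354, 334 and 347 to 264, 275 and 266 CPM (-0.36 ± 0.048, adjusted p = 0.000402). The groups were far apart and the call held with each library left out, though 41.5% of its words recur in other genes. It was the only one of 31 granulocyte and monocyte markers to pass, and their median log2 fold change was -0.04. Mpo, Elane and Prtn3 themselves had values of -0.04, -0.05 and -0.08 and did not pass. The summed level of the granulocyte and monocyte list was 59129 ± 1787 CPM in untreated and 57780 ± 661 CPM in treated libraries.

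Genes with varied roles were among the largest falls of at least 10 CPM. Crls1, the cardiolipin synthase of mitochondria, was at 24.7, 21.3 and 21.1 CPM in untreated and 15.7, 11.3 and 15.2 CPM in treated old HSC, which is 1.58-fold lower (-0.66 ± 0.11, adjusted p = 0.00277). Tmem165, which carries manganese and calcium into the Golgi, was at 99.5, 97.6 and 93.5 against 73.4, 67.4 and 72.6 CPM (-0.44 ± 0.063, adjusted p = 0.000608). In young HSC these genes were at 13.4 ± 1.00 and 54.7 ± 5.39 CPM. Yrdc, which makes a modified base of transfer RNA, fell from 26.7, 23.1 and 22.6 to 18.6, 15.3 and 14.8 CPM (-0.57 ± 0.10, adjusted p = 0.00516), with 15.7 CPM in young HSC. Rab5if, a small membrane protein gene, fell from 449, 437 and 419 to 352, 321 and 326 CPM (-0.39 ± 0.047, adjusted p = 0.000122). All 4 calls held with each library left out, and 23.6% and 23.2% of the words of Yrdc and Rab5if recur in other genes. Abhd17b, Dapk3, Mplkip and Fam122a, also among the largest falls, had log2 fold changes of -0.38, -0.38, -0.37 and -0.37. Of these the call of Mplkip alone held with each library left out, while those of Abhd17b, Dapk3 and Fam122a were lost in 1, 4 and 5 fits (highest adjusted p = 0.189).

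Ybx1, a cold shock domain protein that binds messenger RNA, went from 1241 ± 92 to 976 ± 30.5 CPM (-0.35 ± 0.05, adjusted p = 0.000721), and its paralogue Ybx3 from 85.6 ± 9.2 to 67.2 ± 1.45 CPM (-0.35 ± 0.066, adjusted p = 0.00656). The call of Ybx3 was lost in 3 leave-one-out fits (highest adjusted p = 0.0591). Alyref, an adaptor for nuclear export of messenger RNA, fell from 181 ± 10.4 to 148 ± 1.96 CPM (-0.29 ± 0.049, adjusted p = 0.00311). Of 32 splicing factors 2 fell and 0 rose, with a median of -0.02. Hnrnpab was at 488, 480 and 461 against 406, 393 and 401 CPM (-0.25 ± 0.043, adjusted p = 0.00311), and Srsf2 at 848, 905 and 844 against 770, 730 and 766 CPM (-0.20 ± 0.045, adjusted p = 0.0336). The call of Srsf2 was lost in 5 of 6 leave-one-out fits, and both genes share over 20% of their words with others (28.1% and 23.1%). Ybx1, Ybx3, Alyref and the genes of the next paragraph other than Hdac2 and Rad23b were chosen after their values were seen.

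Hdac2, a histone deacetylase of the kind to which nuclear sphingosine 1-phosphate is known to bind, fell from 88.8, 93.3 and 82.8 to 69.5, 64.8 and 73.4 CPM (-0.35 ± 0.068, adjusted p = 0.00949). It was the only one of 40 chromatin regulators to pass, with a median of 0.04 over the list, and its call was lost without untreated replicate 2, treated replicate 1 or treated replicate 2 (highest adjusted p = 0.096). Cited2, a regulator needed to keep HSCs quiescent, went from 197 ± 7.67 to 168 ± 0.93 CPM (-0.24 ± 0.046, adjusted p = 0.00917), with 99.1 ± 3.03 CPM in young HSC. That call was lost in 3 leave-one-out fits (highest adjusted p = 0.0863). Rad23b, which recognises DNA damage with XPC, fell from 55.1, 56.1 and 53.2 to 41.8, 44.3 and 39.4 CPM (-0.39 ± 0.059, adjusted p = 0.0013). Retn, encoding resistin, went the other way at a low level, from 4.53 ± 0.577 to 7.15 ± 0.497 CPM (0.67 ± 0.15, adjusted p = 0.0322), a call lost in 5 leave-one-out fits (highest adjusted p = 0.226).

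**Figure D4:**
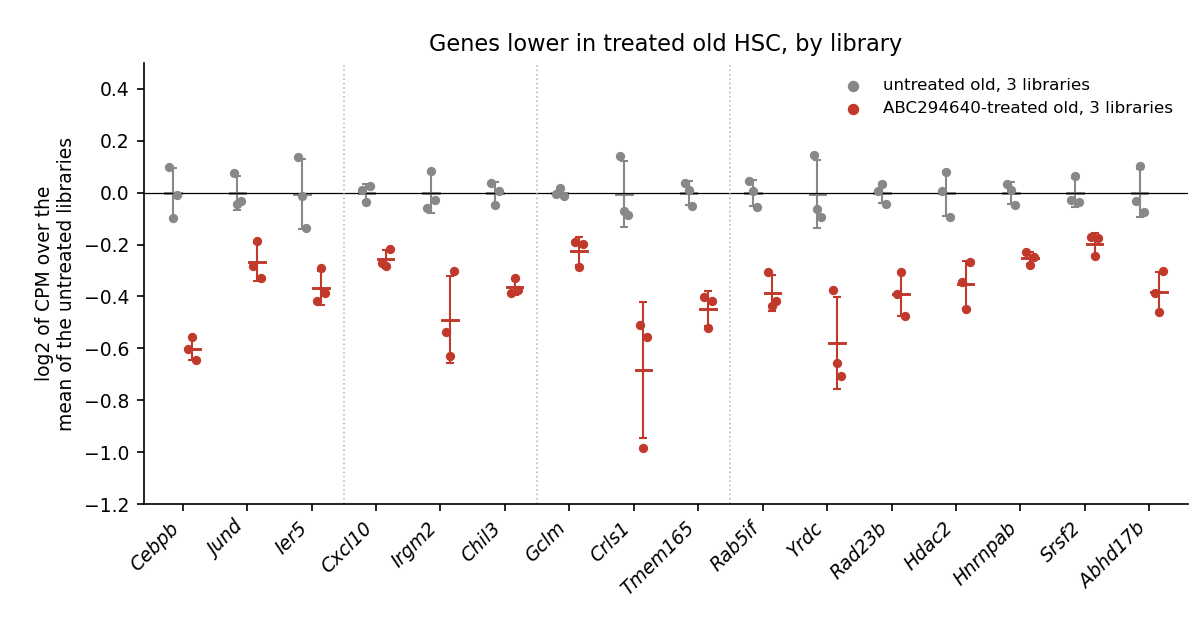
Log2 of the CPM of each library over the mean of the untreated libraries (vertical axis) for 16 genes that fell (horizontal axis), with untreated libraries in grey, treated ones in red, and lines and bars for the mean and SD (n = 3). Every red point lies below the grey points of its gene, with a tight cluster in Cebpb and the widest spread in Crls1.

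Among genes of plasma cells, which secrete antibody and live for long in the marrow, only genes of antibody chains and the J chain fell. Of 12 tested plasma cell markers, 3 fell and 0 rose, where 0.429% of all genes tested fell. Over the 12 the median log2 fold change was -0.20, with 4 changes above 0 and 8 below and values from -0.39 to 0.49. The summed level was 1388 ± 67.8 CPM in untreated and 1235 ± 23.4 CPM in treated libraries. Igha, the heavy chain of IgA (ENSMUSG00000095079, chromosome 12, 113254830 to 113260236, minus strand), was at 115, 103 and 113 against 79.5, 92.5 and 84.2 CPM (-0.37 ± 0.062, adjusted p = 0.00311). Ighg2b, of IgG2b, was at 77.5, 70.8 and 78.3 against 54.5, 59.2 and 58.7 CPM (-0.39 ± 0.061, adjusted p = 0.00167). Jchain, which joins IgA and IgM into polymers, fell from 63.4, 71.3 and 67.8 to 56.4, 53.4 and 57.1 CPM (-0.28 ± 0.058, adjusted p = 0.0164), a call lost in 4 leave-one-out fits (highest adjusted p = 0.138). The kappa constant gene Igkc was at 566, 480 and 552 against 480, 477 and 453 CPM and did not pass (-0.18, adjusted p = 0.211), and Ighm, of IgM, had a value of -0.03.

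Defining genes of these cells were low in every library. Sdc1 was at 0.668 to 1.10 CPM, Mzb1 at 2.92 to 3.45 CPM and Tnfrsf17 at 0.0478 to 0.308 CPM. The B cell gene Pax5 and the T cell gene Cd3e were at 0.514 CPM or less. Immunoglobulin genes together held 0.145% ± 0.00761 of the counts in untreated and 0.130% ± 0.00415 in treated libraries (no overlap, exact permutation p = 0.1) and 0.0534% ± 0.00289 in young HSC. HSCs do not make antibody, and how much RNA of other cells the libraries hold beyond these values was not tested.

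The largest folds of the comparison were in immunoglobulin variable genes, of which each B cell clone joins 1 for its heavy and 1 for its light chain, so that the set of variable genes detected reads out which clones are present. Of the 152 listed in the data, 79 were tested, and 14 fell and 0 rose. The default filter asks for about 10 counts in 3 libraries, and 8 of the 14 falls passed it only through the untreated libraries where they are high, so that they could only fall, while 0 of the 79 passed only through the treated ones. The count of falls is therefore a description. The falls were 10 of 56 kappa genes, 4 of 20 heavy chain genes and 0 of 3 lambda genes. The members went both ways, with 43 changes above 0 and 36 below and with 20 genes in each direction at an unadjusted p under 0.05. Their summed level hardly differed, at 431 ± 31.5 CPM in untreated and 439 ± 17.3 CPM in treated libraries. Genes with at least 10 counts numbered 77 to 83 in untreated and 63 to 66 in treated libraries, and 4 genes were at 1 CPM or more in untreated and under 0.1 CPM in treated libraries, with 0 genes the other way round.

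Igkv6-20 (ENSMUSG00000076587, chromosome 6, 70335841 to 70336507, minus strand) was at 4.71, 4.93 and 6.12 CPM in untreated and 0.058, 0.246 and 0.154 CPM in treated libraries. These are 283 against 8 counts, a ratio of 34.5 (95% interval 17.3 to 80.8, which covers counting error only; adjusted p = 3.15e-07). Igkv19-93, none of whose words recur in other genes, was at 4.12, 4.26 and 4.47 against 0.812, 0.493 and 0.205 CPM, a ratio of 8.71 (5.79 to 13.6), and at 20.5 ± 2.82 CPM in young HSC. Igkv16-104, with 0.287% of its words shared, had 117 against 3 counts, a ratio of 38.1 (12.7 to 187). Ighv10-3 and Ighv7-3 each had 45 counts in untreated and 0 in treated libraries, at least 14.6-fold lower against a floor of 3 counts over the treated group. Igkv6-20, Igkv16-104, Ighv10-3 and Ighv7-3 are among the 8 genes that passed the filter only through the untreated libraries. Their ratios, intervals and p-values are descriptions, since these genes could only fall. The 65 variable genes that did not pass had log2 values from -1.44 in Igkv9-124 to 0.92 in Ighv1-74, which had only 2 and 4 counts, with a median of 0.21. Igkv8-16 was at 5.77, 4.88 and 6.37 against 8.07, 9.24 and 8.07 CPM, above without overlap (0.58, adjusted p = 0.058). Others differed little. Igkv15-103, also with no shared words, was at 11.7, 10.9 and 9.92 against 11.5, 12.3 and 10.1 CPM, and the lambda gene Iglv1 at 100, 88.4 and 89 against 107, 101 and 99.5 CPM (adjusted p = 0.527).

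Libraries of a group were alike in these genes and unlike those of the other group. Over variable genes that reach 20 counts when 2 libraries are added, chi-square per degree of freedom was 1.58 to 1.89 between untreated libraries, 1.34 to 1.73 between treated libraries and 8.79 to 11 between an untreated and a treated library. A value of 1 is what counting noise alone gives. The sources used here do not give how the 3 libraries of a group relate to the animals. In these genes, and in all others compared here, an effect of the inhibitor and a difference between the animals of the groups therefore cannot be told apart. Without genes with shared words 3 of the 14 falls remained in the test, and under a stricter filter 4 did, and each of these was called. The others were removed by those settings and have no value there. DESeq2 gave an adjusted p to 4 of the 79 and to 0 of the 14 falls, so that it called none of the 14. All 14 had an unadjusted p under 0.05 in it. That is a description, since they were picked as falls from the same counts.

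**Figure D5:**
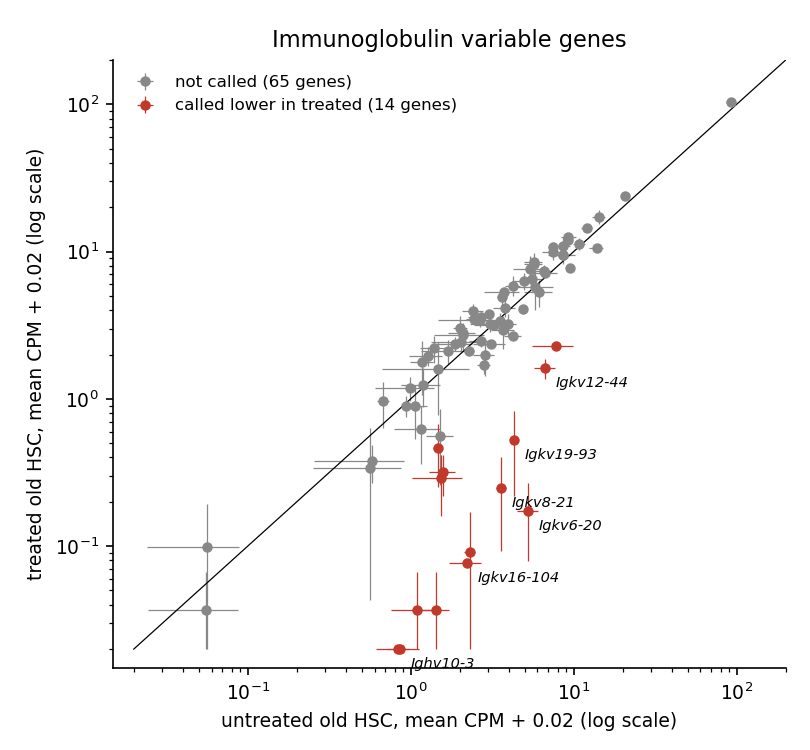
Mean level of each of the 79 tested immunoglobulin variable genes in untreated (horizontal axis) and treated old HSC (vertical axis), as CPM + 0.02 on log axes, with SD bars (n = 3), the 14 genes that fell in red and a line where both are equal. The 14 lie far below the line, while the genes at the highest levels lie close to it.

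The inhibitor's own pathway showed no gene past the threshold. Of 15 genes for enzymes, transporters and receptors of sphingosine 1-phosphate, 0 rose and 0 fell at an adjusted p under 0.05, with a median log2 fold change of -0.07. Sphk2, the target, was at 9.3, 7.08 and 6.86 CPM in untreated and 6.67, 6.22 and 6.16 CPM in treated old HSC (-0.28 ± 0.15, adjusted p = 0.621). All treated values were below the untreated ones, by less than the spread allows to call. Sphk1, the other kinase, was at 8.88, 9.23 and 7.22 against 7.25, 8.93 and 7.24 CPM (-0.12 ± 0.13, adjusted p = 0.871), with overlap, and at 15 ± 0.891 CPM in young HSC. The lyase gene Sgpl1 was at 12.6, 12.4 and 15.7 against 14.2, 13.3 and 11.4 CPM (-0.07 ± 0.11, adjusted p = 0.935). The phosphatase gene Sgpp1, the receptor gene S1pr1 and the exporter gene Mfsd2b had values of -0.17, -0.09 and 0.12 and did not pass. Ceramide and sphingomyelin enzymes had 0 of 32 in either direction and a median of -0.02. Transcript levels do not show whether the kinase was inhibited as an enzyme.

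Apart from Gclm, no ferroptosis gene passed. Gpx4, the peroxidase that repairs lipid peroxides, was at 743, 682 and 725 CPM in untreated and 732, 750 and 706 CPM in treated old HSC (0.03 ± 0.053, adjusted p = 0.954), with 38.9% of its words shared. Slc7a11, the cystine importer that feeds glutathione synthesis, was at 15.1, 16.3 and 13.5 against 12.8, 11.6 and 14.6 CPM (-0.20 ± 0.11, adjusted p = 0.626). The other subunit gene of the glutathione ligase, Gclc, was at 17.1, 19.3 and 16.3 against 15.1, 14.3 and 16.5 CPM (-0.20, adjusted p = 0.575). Glutathione reductase, Gsr, was at 511, 537 and 514 against 477, 447 and 474 CPM, with no overlap, and did not pass (-0.16, adjusted p = 0.141). Of the 30 tested defence genes the median was -0.04, with values from -0.37 to 0.35 and 10 changes above 0. The treated libraries lay wholly below the untreated ones for 6 of the 30, Gclm and Gsr among them, and wholly above for 1, against 7.13% and 8.34% of all genes tested. Genes that favour ferroptosis had 0 of 24 in either direction. Among them were Acsl4, which loads polyunsaturated fatty acids into phospholipids (-0.04 ± 0.087, adjusted p = 0.954), and Lpcat3 (0.05). Aifm2, the coenzyme Q reductase that acts beside Gpx4, was at 3.65, 2.73 and 4.35 against 3.08, 4.93 and 5.19 CPM (0.32 ± 0.22, adjusted p = 0.745).

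Iron genes did not pass either, with 0 of 24 for uptake, storage and export and 0 of 17 for haem synthesis and breakdown, each with a median of -0.01. The transferrin receptor gene Tfrc was at 57.7, 66.3 and 66.5 against 59.2, 55.3 and 63.3 CPM (-0.10 ± 0.07, adjusted p = 0.761). The ferritin heavy chain gene Fth1 was at 1703, 1613 and 1672 against 1678, 1648 and 1714 CPM (0.01 ± 0.037, adjusted p = 0.968), and the iron exporter gene Slc40a1 had a value of -0.09. The ferritin light chain gene Ftl1 had a value of -0.04, with 64.1% of its words shared.

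No HSC identity gene passed. Of 42 HSC surface marker and transcription factor genes 0 rose and 0 fell, with a median of 0.06, and Kit (0.04 ± 0.048), Meis1 (0.07) and Hlf (0.09) did not pass. Procr, the gene of the endothelial protein C receptor, was at 2.94, 2.34 and 2.33 against 3.19, 2.9 and 3.49 CPM (0.34 ± 0.19, adjusted p = 0.652). Of 28 genes known to rise in old HSC 0 rose and 0 fell, with a median of -0.01. Selp, which encodes P-selectin and is among the best known of them, was at 21, 24.1 and 21.7 against 22.9, 23.5 and 20.1 CPM (-0.01 ± 0.088), and Clu, the gene of clusterin, had a value of -0.05. Selp, Slamf1 and Vwf, all on that list, were not higher in untreated old than in young HSC here. Their means were 22.3, 7.47 and 12.5 CPM in untreated old and 23.7, 7.71 and 21.5 CPM in young HSC. Levels of the other members in young HSC are not given here. The p53 target and cell cycle inhibitor gene Cdkn1a was at 62.4, 52.1 and 59.2 against 57.4, 61.1 and 53.3 CPM (-0.01 ± 0.069). Mitosis genes had 0 of 35, CDK inhibitors and G1 cyclins 0 of 14 and p53 targets 0 of 32.

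Stress, degradation and energy lists gave the same picture in calls. There were 0 calls among 31 heat shock protein, 28 endoplasmic reticulum chaperone, 31 proteasome, 49 lysosome and autophagy, 25 glycolysis, 22 MYC and amino acid metabolism, 26 NADPH oxidase and peroxiredoxin, 14 metallothionein and zinc and 30 lipid synthesis genes, with medians from -0.03 to 0.01. In some lists the treated libraries lay wholly below the untreated ones more often than the 7.13% of all genes tested. They did so for 9 of 28 ATF4 response and 7 of 22 MYC and amino acid metabolism genes. The same held for 7 of 26 NADPH oxidase and peroxiredoxin and 6 of 25 glycolysis genes. They lay wholly above for 1, 0, 4 and 0, in that order, against 8.34%. A lean of this kind was thus not particular to ferroptosis defence genes. Markers of other cells had 0 calls among 12 mast cell and basophil, 18 lymphoid and B cell, 10 T and NK cell, 15 macrophage and dendritic cell and 16 stromal and endothelial genes. With 0.429% to 0.766% of all genes called in each direction, a list of this length would hold less than 1 call at the background rate.

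Beside the young libraries, some of the leading falls and rises lay as follows, as levels and with no test, since both comparisons share the untreated libraries. Cxcl10, at 235 ± 5.06 CPM in untreated and 197 ± 4.86 in treated old HSC, was at 152 ± 0.52 CPM in young HSC. Chil3 was at 345 ± 10.1, 268 ± 5.88 and 169 ± 10.6 CPM, and Pf4 at 178 ± 13, 230 ± 5.7 and 375 ± 16.6 CPM in the same order. In these genes and in Cebpb and Gclm the treated level lay between the old and the young one. In Rps28, mt-Atp8 and Snrpg, among the largest rises, it lay above both. Rps28 was at 565 ± 71.2, 796 ± 60.5 and 683 ± 22.2 CPM, mt-Atp8 at 400 ± 35.4, 550 ± 17.6 and 503 ± 43.6 CPM, and Snrpg at 266 ± 37.1, 364 ± 38.3 and 302 ± 22.1 CPM. Nol4l, at 43.5 ± 3.31, 60.1 ± 3.46 and 35.3 ± 0.88 CPM, and Mplkip, a gene tied to hair growth and splicing at 71.2 ± 4.47, 55.2 ± 1.81 and 70.8 ± 2.17 CPM, did not follow that order. Of Y-linked genes, Ddx3y and Eif2s3y stood at 32.3 to 44.7 and 72 to 83.5 CPM in all 6 old libraries and at 0.664 to 1.18 and 1.58 to 3.13 CPM in the young ones, so that age and apparent sex cannot be told apart in levels of the young group, while the treated and untreated groups do not differ in this way.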

How the data were processed

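Full-length low-input RNA sequencing of sorted bone marrow cells was analysed from 1 deposited table of 23317 genes and 9 libraries. Its values are expected counts that need not be whole (56% of the non-zero ones are), as the authors deposited them, and were rounded. The submitters' processing notes name the build mm10 with STAR 2.6.1d, Trim Galore 0.6.2, edgeR 3.24.3 and HTSeq 0.10.0. The sources used here do not give the step that made fractions, or whether strand was used. All rows matched GENCODE release M21 (GRCm38) by identifier. Totals ran from 16663445 to 23254115 counts, which set the precision of low genes.

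Groups came from the labels. The gene test was that of edgeR 4.0.16 under R 4.3.3 (TMM, default filter by group, 14227 genes kept, quasi-likelihood test, Benjamini-Hochberg adjustment, threshold 0.05) in 1 fit of all 9 libraries, with the contrast of treated minus untreated old HSC, and the common biological coefficient of variation was 0.0583. The test was also run on counts simulated from the means, library sizes and common dispersion of the real data, with an outcome that is not given here. For library shares, exact permutation tests (two-sided) were used. Count ratios carry exact 95% intervals. A gene was taken to share words where at least 20% of the 31-base words of its transcripts occur in other genes. Promoters are RefSeq's. Other steps ran in scipy 1.17.1, pandas 2.3.3 and numpy 2.4.6 under Python 3.11.15.

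The comparison, its gene lists and the promoter motifs were chosen with earlier results of these data known. Genes were named by a rule: the 15 largest rises and 15 largest falls of at least 10 CPM whose libraries do not overlap, leaving out predicted genes and pseudogenes, up to 4 genes past the threshold in each list, the 6 at the highest levels, the 10 of smallest p, and 16 genes of the inhibitor's pathway, ferroptosis and HSCs given whether or not they pass. Names outside it were chosen after their values were seen. Alternatives were RLE size factors, DESeq2 1.42.0, other filters, a fit of the 6 old libraries, a replicate block, leaving out each library, and a test against a fold change of 1.2. Added once the data had been seen were fits without antigen receptor genes or without genes with shared words, thinning to 16663445 counts, and removal of trends on length and GC content.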

Additional observations from a re-analysis of the deposited data

How the results depend on the processing

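The 109 rises and 61 falls numbered 219 and 114 with no filter, 164 and 96 in the fit of the 6 old libraries alone, and 2 and 13 against a fold change of 1.2. Of those 13 falls, 12 were immunoglobulin variable genes. With settings chosen after the data were seen, the falls numbered 38 without genes with shared words and 125 with length and GC trends removed. With 1 library left out there were 17 to 130 rises and 31 to 57 falls. RLE size factors, DESeq2, a stricter filter, thinning and leaving out immunoglobulin genes gave 89 to 137 rises and 42 to 70 falls. Every one of the 170 calls kept its sign in each alternative that gave it a value. Sign changes occurred in genes that did not pass. Fth1 had a log2 value of -0.06 with length and GC trends removed. With a library left out the values ran from -0.13 to 0.003 in Acsl4, -0.09 to 0.04 in Cdkn1a, -0.01 to 0.03 in Fth1, -0.01 to 0.05 in Gpx4, -0.06 to 0.05 in Selp and -0.14 to 0.04 in Sgpl1. The causes were not tested. With the replicate number as a block, 128 genes rose and 67 fell, and 109 and 59 of the main calls were kept. Deviations of same-numbered libraries correlated at -0.0189, -0.155 and -0.0571, so that no shared deviation was seen. This does not show whether the samples were collected or processed in pairs. Genes of a few CPM, such as Sphk2 and Procr, have standard errors of 0.15 and 0.19, which limits what could be detected.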

Other observations

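Some further genes that fell belong to none of the lists described, and were chosen after their values were seen. Stfa2 and BC100530, of the stefin A family of cysteine protease inhibitors in neutrophils, lay at low levels. BC100530 was at 2.53, 2.92 and 3.31 CPM in untreated and 1.1, 0.801 and 1.13 CPM in treated old HSC (log2 fold change -1.51 ± 0.28, adjusted p = 0.00599), and Stfa2 was at 0.708 ± 0.167 and 0.13 ± 0.06 CPM (-2.38 ± 0.55, adjusted p = 0.0363), a call lost with the replicate block. Stfa2 passed the filter on low counts only through the untreated libraries, where it is high, so that it could only fall. Its p-value is therefore a description, and its call was also lost with no filter. Of the words of BC100530 and Stfa2, 51.8% and 33.3% recur elsewhere, and reads of the family may be split between members. Otulin, which removes linear ubiquitin chains, fell from 30.4 ± 0.996 to 23.9 ± 0.242 CPM (-0.34 ± 0.072, adjusted p = 0.0164). Orai1, the pore of store-operated calcium entry, fell from 53.8 ± 6.82 to 42.6 ± 1.53 CPM (-0.33 ± 0.078, adjusted p = 0.0366). Ythdc1, a nuclear reader of methylated adenosine in RNA, fell from 69.7 ± 1.87 to 56.7 ± 3.33 CPM (-0.30 ± 0.062, adjusted p = 0.0164). Gnas, which encodes the stimulatory G protein subunit, fell from 338 ± 16.9 to 284 ± 6.55 CPM (-0.25 ± 0.048, adjusted p = 0.00658), with antisense and overlapping transcripts at the locus. Ppp2ca, the catalytic subunit of protein phosphatase 2A, which ceramide is known to activate, fell from 282 ± 5.23 to 238 ± 9.01 CPM (-0.24 ± 0.048, adjusted p = 0.0103), though 43% of its words recur elsewhere. Rbx1, the ring protein of cullin ubiquitin ligases, rose from 352 ± 32.3 to 453 ± 18.2 CPM (0.36 ± 0.06, adjusted p = 0.00267). Of these calls only that of Rbx1 held with each library left out. Those of BC100530, Gnas and Ppp2ca were lost in 1, 2 and 2 leave-one-out fits (highest adjusted p = 0.0607, 0.0601 and 0.106), and those of Ythdc1, Orai1, Otulin and Stfa2 in 3, 4, 5 and 5 (0.144, 0.255, 0.108 and 0.232).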
